A study of Mus musculus with 14 samples.

Results

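RNA-seq counts from mouse thymus were searched for genes that all 10 Lmo2-driven tumours had in common, whichever cell the transgene had been aimed at. A gene was a member of this shared program when all 10 tumour libraries lay on 1 side of all 4 wild-type (WT) libraries in CPM (counts scaled to library size) after TMM, a method that sets libraries to a common level from the bulk of their genes. Genes had to reach 1 CPM in 3 or more of the 14 libraries to be considered. Of 17087 such genes, 845 lay above WT in every tumour (4.95% of genes tested) and 1228 lay below WT in every tumour (7.19%), together 2073 members. The rule used the contrast of tumours with WT. Levels and fold changes against WT therefore describe the members and are no test of them.

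Of the 10 tumours, 3 came from Rosa26-Lmo2+Sca1-Cre mice aged 9 months, in which Cre under the Sca1 promoter opens an Lmo2 allele in the Rosa26 locus in stem and progenitor cells, and all blood cells that descend from them keep it. In Sca1-Lmo2 mice (4 tumours, 7 to 8 months) the Sca1 promoter drives Lmo2 itself, and the study describes this promoter as active in part of the T-cell precursors too. In Rosa26-Lmo2+Mb1-Cre mice (2 tumours, 20 months) Cre acts in early B-lineage cells, while Rosa26-Lmo2+Aid-Cre (1 tumour, 22 months) aims it at germinal centre B cells and rests on 1 animal. Healthy thymus came from 4 WT mice aged 4 months, and all 14 animals are labelled with the mixed strain C57BL/6;CBA. Every tumour came from an older mouse than every control, so tumour and age cannot be told apart. The labels give frozen thymus as source, whereas blast cells are spoken of in the methods. In bulk RNA, fewer cells of a type and less RNA per cell cannot be told apart either.

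LMO2 is an adaptor of transcription factor complexes in blood stem cells that normal thymocytes switch off, and its lasting expression leads to T-cell acute lymphoblastic leukaemia. Most such leukaemias also carry an active NOTCH1, a receptor whose cleaved inner part joins the DNA-binding protein RBPJ and switches on Hes1, Heyl, Dtx1 and Ptcra. Normal thymocytes rearrange their receptor genes, carry CD4 and CD8 together, and survive selection only if their receptor signals, which induces the Egr and Nr4a factors, CD69 and CD5.

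Sequences upstream of 4 members are shown because RBPJ is the DNA-binding partner of NOTCH1, and they were picked because they hold its letters, in members of both directions. Of 14 NOTCH1 target promoters with an entry, 4 held the letters, and of the 6 that belong to members only that of Ptcra did. Each is 100 bases 5′ to 3′ from RefSeq (GRCm38.p6), with the RBPJ letters TGGGAA, or TTCCCA where the site is on the other strand, in capitals. Ptcra, which encodes the pre-T-cell receptor alpha chain (chr17:46763718-46763817, minus strand), and Cym, the protease chymosin (chr3:107221883-107221982, minus strand), were higher in all tumours. Lfng, the fringe enzyme that modifies Notch (chr5:140607172-140607271, plus strand), and Cd5, a receptor that dampens T-cell receptor signals (chr19:10739125-10739224, minus strand), were lower in all tumours.
Ptcra: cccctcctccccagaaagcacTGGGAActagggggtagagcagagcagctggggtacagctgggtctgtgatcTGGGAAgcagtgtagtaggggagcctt
Cym: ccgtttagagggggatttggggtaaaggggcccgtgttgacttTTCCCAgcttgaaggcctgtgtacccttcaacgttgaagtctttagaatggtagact
Lfng: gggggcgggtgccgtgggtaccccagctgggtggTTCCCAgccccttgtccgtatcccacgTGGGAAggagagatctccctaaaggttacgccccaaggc
Cd5: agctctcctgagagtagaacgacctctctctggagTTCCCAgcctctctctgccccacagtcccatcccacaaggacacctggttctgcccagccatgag
The letters stood at 2 places upstream of Ptcra, a higher member, and at 2 places upstream of Lfng, a lower member, where the last one overlaps the E-box CACGTG. On either strand of the 250 bases before the start, TGGGAA was found in 120 of 516 promoters of higher members (23.3%), in 160 of 811 of lower members (19.7%) and in 2207 of 10831 of all genes tested (20.4%). Promoters were matched for 61.1% of the higher and 66.0% of the lower members. Since under 80% were matched, a comparison of the shares is void, and a match is a description of letters and not of binding.

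Total counts per library lay between 42985130 and 47667663. Rosa26-Lmo2+Sca1-Cre replicate 3 stood apart with 33841 genes that held a count, against 23534 to 26781 in the other 13 libraries. Without it the program held 1127 higher and 1428 lower genes. Sca1-Lmo2 replicates 1 and 3 shared their leading receptor beta joining segment, Trbj2-1, which held 86.0% and 88.8% of Trbj counts, and they were the closest pair of tumours of 1 model, with an SD of log2 differences of 0.665 against 0.865 to 1.27 for the other pairs. Their counts still differed beyond sampling noise, with a median chi-square over genes of 30.0. Taken as 1 library they left 857 higher and 1306 lower genes. The T lineage was present in every tumour: the summed CPM of 22 genes that mark it came to 4197 to 8396 in tumours and 12250 to 13400 in WT.

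The number of genes fell with the number of tumours that lay above all WT libraries, from 3997 genes at 0 tumours to 1073 at 9 and 845 at 10. Below WT the count went from 4023 genes at 0 tumours to 986 at 9 and up to 1228 at 10. Where exactly 9 tumours lay beyond WT, the exception was Rosa26-Lmo2+Sca1-Cre replicate 3 for 286 genes above and 209 below, and Sca1-Lmo2 replicate 3 for 8 above and 15 below. The split between directions depended on the scaling. On library totals without TMM, the median log2 fold change of all genes moved from 0.00 to -0.27, and 441 genes were higher and 1700 lower, so that the higher share of members went from 40.8% to 20.6%.

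**Figure D1:**
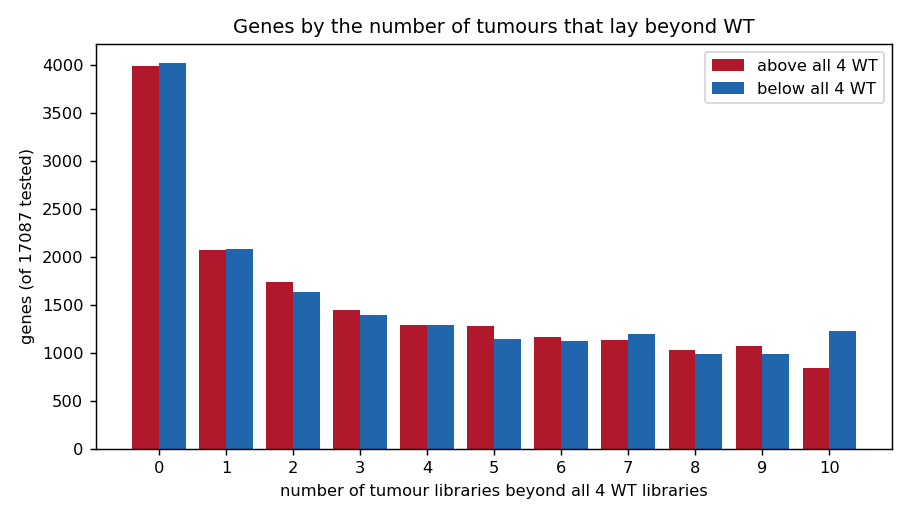
Number of genes, of 17087 tested, by the number of tumour libraries (0 to 10) that lay above (red) or below (blue) all 4 WT libraries in TMM-scaled CPM. The members are the bars at 10, with 845 genes above and 1228 below, where the lower count exceeds the 986 genes at 9.

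The distance between the nearest tumour and WT libraries, called the gap here and taken on log2(CPM + 0.5), was at least 1 for 61 higher and 128 lower members, while the median gap was 0.20 and 0.25. Many members therefore sat close to the line. Just inside it, the lowest tumour had 31.2 CPM of Qdpr where the highest WT library had 31.1, and the highest tumour had 64.7 CPM of Tubgcp6, as did the lowest WT library at this rounding. Just outside it, Eif2ak1 reached 53.7 CPM in the lowest tumour and 53.8 in the highest WT library. Fbxw7, which marks the active form of NOTCH1 and MYC for destruction, was a lower member by this margin only, with 30.6 CPM in both nearest libraries. With a demand that the nearest libraries be 1.5-fold apart, 212 higher and 296 lower genes were left.

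Each library in turn was set aside, members were chosen on the other 13, and the library set aside was then placed. It was placed against the same libraries of the opposite group that had chosen the genes. This favours high shares, so they are a description. When Sca1-Lmo2 replicate 3 was set aside, replicate 1 with the same leading Trbj segment stayed among the libraries that chose. Among tumours, 75.1% (Rosa26-Lmo2+Sca1-Cre replicate 3) to 99.1% (Sca1-Lmo2 replicate 3) of the higher genes lay above all WT libraries in the tumour not used, where 32.9% to 39.8% of all genes tested did so. For lower genes the shares were 85.9% to 98.9%, against 33.7% to 42.2% of all genes. In the Rosa26-Lmo2+Aid-Cre tumour, the only one of its model, 83.3% of 1012 higher and 89.5% of 1368 lower genes lay on the side of the other 9 tumours. A WT library set aside lay on the WT side for 77.0% to 92.8% of higher and 86.3% to 96.4% of lower genes, against 10.1% to 17.9% of all genes.

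**Figure D2:**
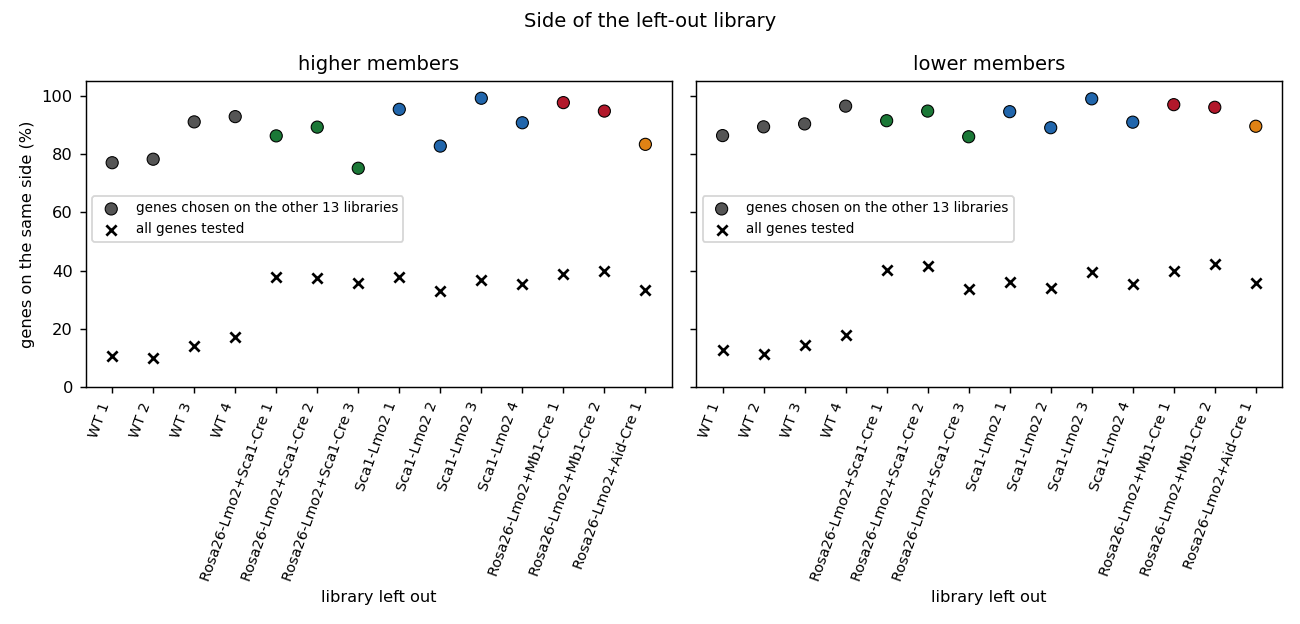
Share of genes (%) that lay on the same side in a library set aside, for genes chosen on the other 13 libraries (circles, coloured by group) and for all genes tested (crosses), with higher genes in the left and lower genes in the right panel. Circles lie between 75.1% and 99.1%, and crosses between 10.1% and 42.2%. The opposite group also chose the genes, which favours high circles.

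The median member stood 0.889 (Rosa26-Lmo2+Sca1-Cre replicate 3) to 1.65 log2 units (Rosa26-Lmo2+Mb1-Cre replicate 2) above the WT mean in each tumour for the higher set, and between -0.91 and -1.55 for the lower set. The higher members held 3.30% to 4.62% of the CPM of tested genes in WT and 6.96% to 9.73% in tumours. The lower members held 12.1% to 14.3% in WT and 3.02% to 6.51% in tumours. Neither range overlapped between tumours and WT, which the choice of members favours.

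**Figure D3:**
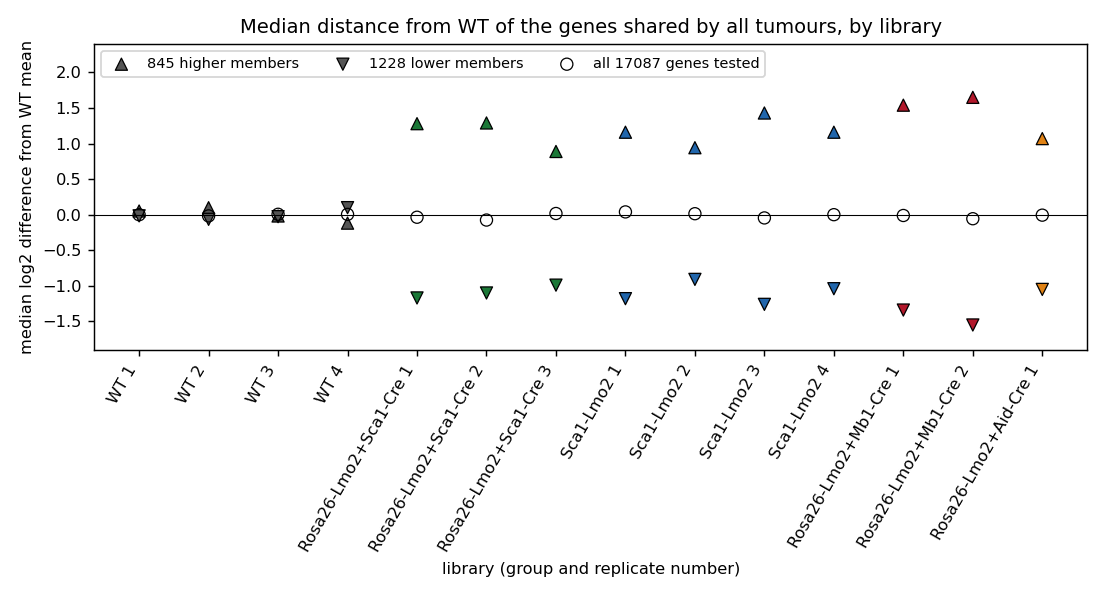
Median log2 difference from the WT mean in each library for the 845 higher members (triangles up), the 1228 lower members (triangles down) and all 17087 genes tested (open circles). Higher members sit between 0.889 and 1.65 and lower members between -0.91 and -1.55 in tumours, while all genes stay near 0.

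The first gene group among the higher members was the NOTCH1 pathway. Of 18 tested NOTCH1 target genes, 5 were higher in every tumour (Notch1, Hes1, Heyl, Dtx1 and Ptcra) and 3 were lower (Tcf7, Rel and Nfkb2). Over the list, 7 genes were called higher and 3 lower by edgeR, with a median log2 fold change of 1.11, against 0.00 over all genes. Across all genes, the same test called 16.3% higher and 15.7% lower, and 4.95% were higher and 7.19% lower members.

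Notch1 (chromosome 2, 26457903 to 26516663, mm10) had 64.9, 69.4, 86.4 and 98.2 CPM in the WT libraries. In the tumours it ran from 197 CPM (Rosa26-Lmo2+Mb1-Cre replicate 2) over a median of 600.1 to 1399 CPM (Sca1-Lmo2 replicate 2), a log2 fold change of 2.90 (SE 0.458). The groups did not overlap, with a gap of 1.00 that went down to 0.28 on library totals, and the tumours differed among themselves more than the WT libraries did. The span of Notch1 overlaps that of 0610009E02Rik, and the library kit does not keep strand, so reads of both cannot be separated. Notch1 was also part of the longest run of neighbouring tested genes that were all higher, 7 genes from 0610009E02Rik to Fam69b (chromosome 2, 26445696 to 26636497), each of which overlaps another gene.

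Hes1, a repressor that is the best known Notch target (chromosome 16, 30064384 to 30067796), was nearly silent in WT, with 1.69, 2.48, 2.00 and 1.70 CPM. It reached 12.1 CPM in the lowest tumour, 63.1 at the median and 142 in the highest, a log2 fold change of 4.94 (SE 0.630). Heyl, a related repressor, had 0.330, 0.0990, 0.378 and 0.453 CPM in WT and 3.01, 52.2 and 224 CPM in the lowest, median and highest tumour. Both genes were thus low in all WT libraries and spread over a wide range in tumours, with Rosa26-Lmo2+Sca1-Cre replicate 3, Sca1-Lmo2 replicate 4 and Rosa26-Lmo2+Mb1-Cre replicate 2 as the lowest 3 for both.

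Dtx1 encodes Deltex, a ubiquitin ligase that binds Notch. It had 25.3, 15.8, 27.0 and 24.6 CPM in WT and 49.2, 490.2 and 1064 CPM in the lowest, median and highest tumour, with Rosa26-Lmo2+Sca1-Cre replicate 3 lowest again. Ptcra had 23.2 to 36.7 CPM in WT and 38.1 to 534 CPM in tumours, so its groups were separated by little, and its span overlaps that of Gm26904. Beside 4.95% and 7.19% of all genes, 2 of 25 tested Notch receptors, ligands and modulators were higher (Notch1 and the ligand-like Dlk1) and 4 lower. The lower ones were Lfng and Rfng, fringe enzymes that add sugars to Notch, the receptor Notch4, and Fbxw7. Lfng had 28.6, 19.1, 32.9 and 20.6 CPM in WT and 0.670 to 5.90 CPM in tumours.

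**Figure D4:**
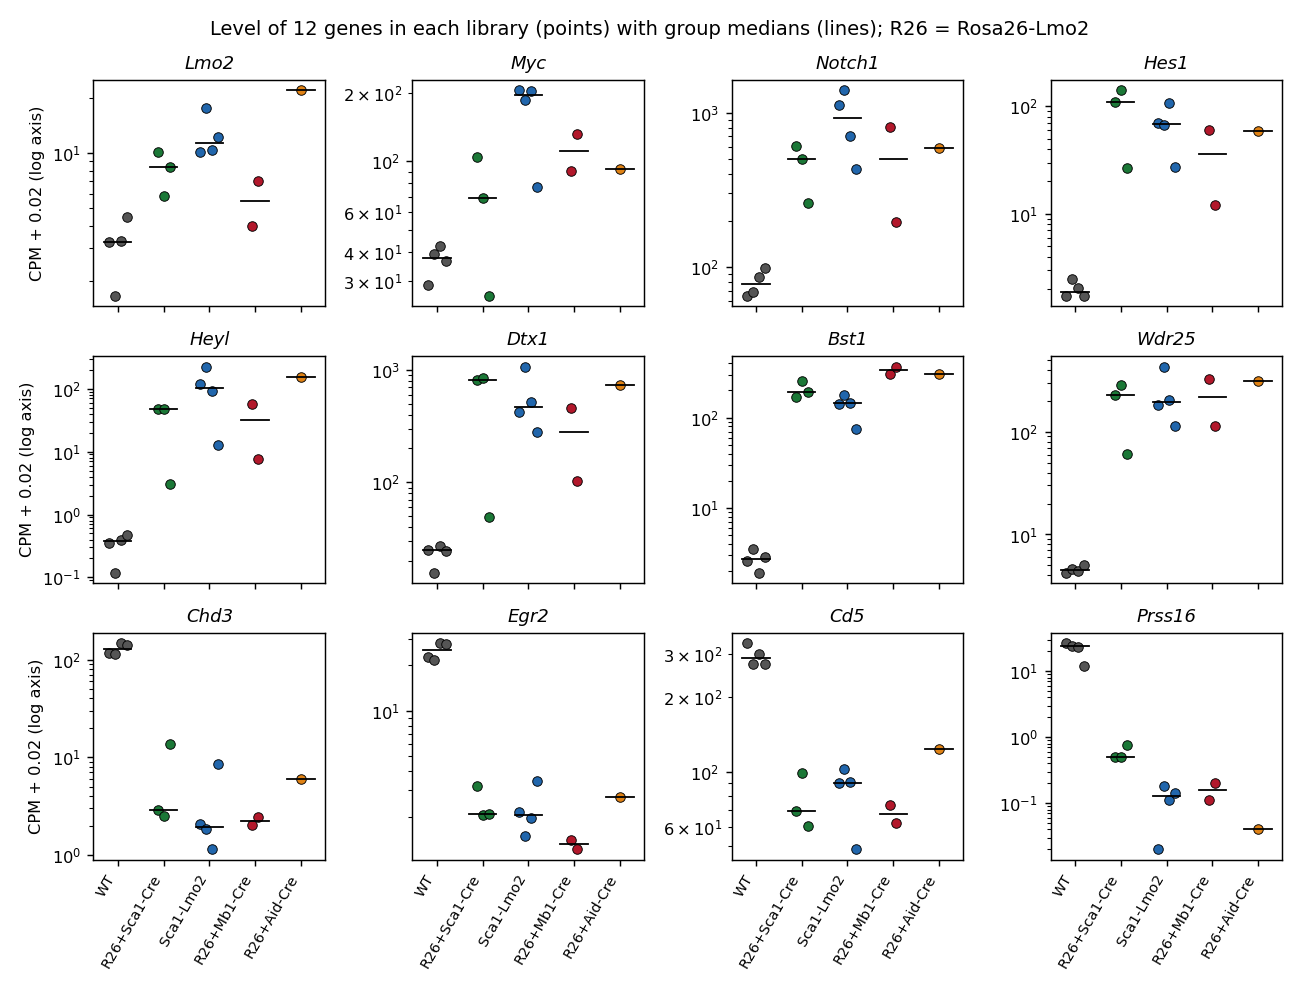
CPM + 0.02 on a log axis (the offset lets a value of 0 be drawn) of 12 genes in each library, with points for libraries, lines for group medians and groups on the horizontal axis. Hes1 lies at 1.69 to 2.48 CPM in WT and at 12.1 to 142 CPM in tumours, Chd3 at 113 to 147 CPM in WT and at 1.13 to 13.6 CPM in tumours, and only Lmo2 and Myc overlap between tumours and WT.

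Lmo2, the gene introduced in all models, was not itself a member. It had 3.22, 1.62, 3.27 and 4.42 CPM in WT and 3.95, 10.1 and 22.1 CPM in the lowest, median and highest tumour, so that 9 of 10 tumours lay above WT and Rosa26-Lmo2+Mb1-Cre replicate 1 did not. Its log2 fold change was 1.75 (SE 0.328, edgeR adjusted p = 0.00326), and its reads are shared with the overlapping 4931422A03Rik. The study reports that Sca1-Lmo2 tumour cells had lost Lmo2, by tissue staining and, after cell sorting, by PCR and Western blot. It also describes a mosaic of Lmo2 that persisted in thymic T cells outside the tumour. Positive controls in its PCR were Rosa26-Lmo2+Sca1-Cre leukaemic cells, besides those of Rosa26-Lmo2+Mb1-Cre. The present libraries are labelled as frozen thymus. In them Lmo2 had 10.2, 17.5, 10.3 and 12.2 CPM in Sca1-Lmo2. It had 10.1, 5.82 and 8.33 CPM in Rosa26-Lmo2+Sca1-Cre and 3.95 and 6.97 CPM in Rosa26-Lmo2+Mb1-Cre. Since the material may differ, these values do not test the reported loss. Which cells the reads came from was not tested. Beside 4.95% and 7.19% of all genes, none of 17 tested genes for LMO2 partners was higher and 3 were lower in all tumours. These were Ldb1, which bridges LMO2 complexes (377 to 560 CPM in WT, 115 to 273 in tumours), Ssbp2, which stabilizes LDB1, and Id3, an inhibitor of E proteins. Id3 was a member by a gap of 0.01 only.

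Myc missed the program by 1 library as well. It had 28.8, 39.1, 42.6 and 36.5 CPM in WT and 25.7, 98.3 and 205 CPM in the lowest, median and highest tumour, the lowest being Rosa26-Lmo2+Sca1-Cre replicate 3. The other 9 lay above WT, and the log2 fold change was 1.49 (SE 0.362, edgeR adjusted p = 0.0105). Of 28 tested MYC and ribosome production genes, a list that also holds Ldha and Srm, 7 were members, all higher, and 21 were not. Over all genes 4.95% were higher members. The summed CPM of the 28 overlapped between groups (2214 to 2810 in WT, 2563 to 12480 in tumours). Among tumour models 8 of the 28 differed, beside 14.6% of all genes. All 28 were called higher by edgeR, beside 16.3% of all genes, with a median log2 fold change of 1.21. Fbl, the methylase of ribosomal RNA fibrillarin, had 67.9 to 116 CPM in WT and 144 to 539 in tumours. Rrp12, a factor for export of ribosomal subunits, had 10.9 to 12.6 CPM in WT and 17.8 to 48.2 in tumours. The others were Nle1, Utp20, Pes1 and Polr1b, which act in ribosome assembly or ribosomal RNA synthesis, and Srm, spermidine synthase. Srm was a member by a gap of 0.004 only, and the span of Pes1 overlaps that of 4930556J24Rik. Utp20 was no longer a member on library totals, with a gap of -0.08.

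Of 29 tested cell cycle genes, 7 were called higher and 2 lower by edgeR, beside 16.3% and 15.7% of all genes. Of the 29, 27 were not members, beside the 4.95% of all genes that were higher and 7.19% that were lower. Mcm6, part of the replication helicase, was higher in all tumours (122 to 187 CPM in WT, 194 to 535 in tumours) and E2f2 was lower, and Mcm6 overlapped between groups on library totals (gap -0.53). Their summed CPM came to 3704 to 5259 in WT and 2633 to 6906 in tumours.

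The widest gap of any higher gene named by rule belonged to Bst1 (CD157), a surface enzyme that cleaves NAD and is used as a marker of stromal and early blood cells. It had 2.56, 3.53, 1.91 and 2.87 CPM in WT and 75.4, 184 and 367 CPM in the lowest, median and highest tumour, a log2 fold change of 6.40 (SE 0.330). All tumours stood far above the WT libraries and the span of Bst1 overlaps that of Fbxl5. Wdr25, a gene of WD-repeat type next to the imprinted Dlk1 region, followed with 4.23, 4.58, 4.40 and 5.02 CPM in WT and 61.3, 216 and 430 CPM in tumours. Both genes were high in all 4 models.

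Fbp1, a key enzyme of gluconeogenesis, had 0.475 to 0.718 CPM in WT and 5.77 to 195 CPM in tumours. Among 29 tested metabolic enzymes it was joined by Acaca, the first enzyme of fatty acid synthesis (15.1 to 21.8 CPM in WT, 36.5 to 76.9 in tumours), Psat1 of serine synthesis (29.7 to 47.6 and 50.9 to 285 CPM) and Bst1. Pdk1, which restrains entry of pyruvate into mitochondria, went the other way with 148 to 308 CPM in WT and 21.4 to 104 in tumours. These 4 higher members and 1 lower member stood beside 4.95% and 7.19% of all genes. Over this list 15 genes were called higher and 3 lower, beside 16.3% and 15.7% of all genes. The median log2 fold change of the list was 0.92.

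Further genes with wide gaps came from varied families. Cpeb1, which controls translation of messenger RNA, had 2.08 to 4.36 CPM in WT and 21.6 to 111 in tumours. H2-T3, a nonclassical MHC class I gene for the thymus leukaemia antigen, had 1.94, 0.990, 1.74 and 1.62 CPM in WT and 7.08, 50.8 and 292 CPM in the lowest, median and highest tumour. Arhgef10l ranged from 3.06 to 3.94 CPM in WT and from 12.6 to 381 in tumours, and Fbln1, an extracellular matrix protein, from 1.61 to 4.08 and from 12.6 to 241 CPM. Exoc3l4 and Thnsl2 completed the group.

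Ifi202b, an interferon-inducible DNA sensor whose level is known to differ between inbred mouse strains, had 0, 4.22, 0.0756 and 0.0567 CPM in the WT libraries. It stood at 10.03, 209 and 343 CPM in the lowest, median and highest tumour. WT replicate 2 thus lay far from the other controls, and the tumours covered a wide range. Since the strain labels name a mixed background, the part of strain in this difference was not tested.

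Some members crossed from near silence. With all WT libraries under 1 CPM and all tumours at 1 CPM or more, 59 genes were switched on, of which 16 had only predicted-gene symbols. Ace, angiotensin-converting enzyme, had 0.0756 to 0.258 CPM in WT and 6.46 to 137 in tumours, where 4 tumours of 4 different models stood at 70.3 CPM or more and 6 at 14.7 or less. Cyb561, Gm11651 and Ace lie side by side on chromosome 11 (105933702 to 105989964) and were all higher. Cym had 0.0413 to 0.258 CPM in WT and 4.14, 43.1 and 108 CPM in the lowest, median and highest tumour.

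Developmental regulators were among the switched genes. Sall3, a zinc finger factor, ranged from 0 to 0.158 CPM in WT and from 3.49 to 174 in tumours. Nova1, a splicing factor of neurons, ranged from 0 to 0.189 and from 3.28 to 10.5 CPM, and Adamts20, a matrix protease, from 0.0189 to 0.189 and from 3.29 to 13.4 CPM. The tumours covered a wider range for Sall3 than for the other two. Tbx4, a limb and lung transcription factor singled out after its values were seen, had no count in any WT library and 1.20, 14.4 and 26.7 CPM in the lowest, median and highest tumour. Against a floor of 3 counts per WT library the median tumour was at least 231-fold higher.

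Cytotoxic and macrophage-type genes appeared there too. Gzmk, a granzyme, and its overlapping neighbour Esm1 lie beside Gzma on chromosome 13 (113093825 to 113225908). Gzmk had 0.359 to 0.605 CPM in WT and 4.34 to 75.0 in tumours, and Gzma had 21.5 to 42.1 and 59.9 to 2264 CPM. Arg1, Saa3 and Fcgr4, best known from macrophages and chosen after their values were seen, had at most 0.813, 0.284 and 0.392 CPM in WT and at least 2.02, 2.37 and 1.25 CPM in tumours. The summed CPM of 19 myeloid markers was 163.9 to 354.4 in WT and 127 to 1570 in tumours. None of the 19 was a member, beside 4.95% of all genes that were higher and 7.19% that were lower. The part of myeloid cells in these genes was not tested.

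The lower members were led by genes that receptor signals induce during selection. Of 19 such genes tested, 11 were lower and none higher in all tumours. EdgeR called 13 of the 19 lower, beside 15.7% of all genes, with a median log2 fold change of -1.78 against 0.00 over all genes. The summed CPM of the 19 was 1718 to 1872 in WT and 466.5 to 774.5 in tumours, with no overlap. Since 11 of the 19 are members, the rule favours this, and it is no further support. The members were Egr1, Egr2, Nr4a3, Cd69, Cd5, Cd6, Nab2, Itm2a, Tagap, Rasgrp1 and Id3, and their number set against the 7.19% of all genes is a description of a list picked with these data known.

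Egr2, a zinc finger factor that receptor signals switch on in thymocytes (chromosome 10, 67535475 to 67542188), had 22.8, 21.7, 28.02 and 27.7 CPM in WT. All 10 tumours lay between 1.20 and 3.40 CPM with a median of 2.04, a log2 fold change of -3.59 (SE 0.276). The tumours lay close together, and no tumour came near the WT range. Egr1, its relative, had 109.9, 106, 118 and 138 CPM in WT and 4.28, 16.1 and 38.5 CPM in the lowest, median and highest tumour.

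Cd69, an early activation receptor that holds cells in the thymus, had 86.4, 79.2, 71.0 and 95.0 CPM in WT and 2.78, 12.6 and 22.1 CPM in the lowest, median and highest tumour. The Rosa26-Lmo2+Mb1-Cre tumours were its lowest 2, and the groups did not overlap. Nr4a3, an orphan nuclear receptor, had 15.3 to 18.5 CPM in WT and 0.445 to 4.69 in tumours. Nab2, a corepressor that binds EGR proteins, had 69.8 to 89.7 CPM in WT and 8.37 to 30.7 in tumours, and its span overlaps that of Stat6. Junb and Zfp36 were the lower members among 16 tested immediate-early and heat shock genes, beside 7.19% of all genes. Of that list 3 genes were called lower and 1 higher, beside 15.7% and 16.3% of all genes.

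Surface and identity genes of the T lineage were lower as well. Of 22 tested, 10 were lower (Cd4, Cd8a, Cd8b1, Cd5, Cd6, Cd28, Thy1, Tcf7, Zbtb7b and Satb1) and none was higher, beside 7.19% and 4.95% of all genes. Of the 22, 12 were called lower, beside 15.7% of all genes, with a median log2 fold change of -0.94. This list too was picked with these data known. Cd5 (chromosome 19, 10718143 to 10738974) had 331, 274, 300.5 and 273 CPM in WT and 48.6, 81.6 and 124 CPM in the lowest, median and highest tumour, and its neighbours Vps37c, A430093F15Rik and Cd6 were lower too. Satb1, which folds chromatin in thymocytes, had 1279, 1309, 1365 and 1831 CPM in WT and 118, 369 and 552 CPM in tumours.

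Cd4 showed how unlike the tumours could be within the same side. It had 706, 855, 834 and 865 CPM in WT and 7.72, 242 and 389.6 CPM in the lowest, median and highest tumour, with Rosa26-Lmo2+Sca1-Cre replicate 1 far below the others, the next being 94.3 CPM. Cd8a had 1402 to 1602 CPM in WT and 205 to 824 in tumours. Zbtb7b, the factor that sets the CD4 lineage, had 22.6 to 34.9 CPM in WT and 1.84 to 10.2 in tumours. Thy1 and Cd28 were members by gaps of 0.02 each.

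Of 16 tested pre-TCR and recombination genes, 6 were lower, among them Dntt, Rag2, Lck, Themis and Cd1d1, and only Ptcra was higher. Over all genes 7.19% were lower and 4.95% higher members. Of the 16, edgeR called 9 lower and 1 higher, beside 15.7% and 16.3% of all genes. Dntt, which adds bases at receptor joins, had 1616, 1891, 1511 and 1470 CPM in WT and 111, 560.3 and 1051 CPM in the lowest, median and highest tumour. Themis, needed for selection, had 346 to 485 CPM in WT and 91.9 to 229.7 in tumours, and Lck, the first kinase of receptor signals, 1417 to 1737 and 556 to 1134 CPM. Of 21 genes of mature thymocytes, 4 were lower members, beside 7.19% of all genes. Cd40lg, a helper-cell ligand, had 3.90 to 8.58 CPM in WT and 0 to 0.333 in tumours, and Gimap3, a GTPase of lymphocyte survival, 65.6 to 145 and 2.39 to 28.9 CPM.

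**Figure D5:**
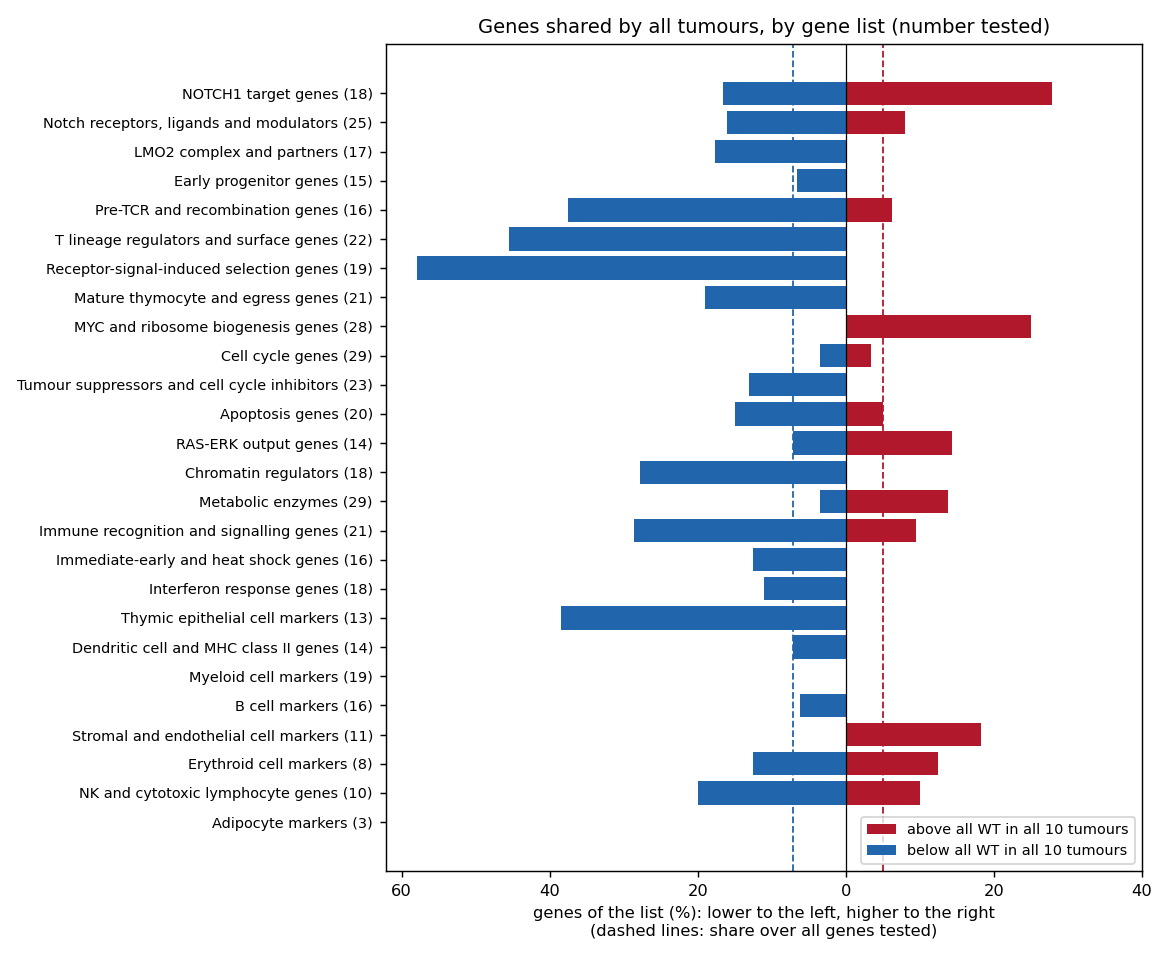
Share of tested genes (%) of each gene list that lay below all WT libraries (blue, to the left) or above them (red, to the right) in all 10 tumours, with the number of genes tested in brackets and dashed lines at the shares over all genes, 7.19% and 4.95%. The bars are longest to the left for selection genes (11 of 19) and T lineage genes (10 of 22). To the right they are longest for NOTCH1 targets (5 of 18) and MYC and ribosome production genes (7 of 28).

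Chd3, an ATP-dependent subunit of the NuRD chromatin complex (chromosome 11, 69343273 to 69369406), had the widest gap of the lower genes with a mean log2 level of at least 3. It had 117, 113, 147 and 141 CPM in WT and 1.13, 2.46 and 13.6 CPM in the lowest, median and highest tumour, a log2 fold change of -4.97 (SE 0.655). Every tumour lay far below every WT library. Of 18 tested chromatin regulators, 5 were lower and none higher, beside 7.19% and 4.95% of all genes. The 5 were Chd3, Satb1, the demethylase Kdm6b, the deacetylase Hdac7, by a gap of 0.00, and Tet2, which oxidizes methylcytosine. Tet2 had 12.9 to 28.5 CPM in WT and 0.404 to 10.4 in tumours.

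The other genes with wide gaps in this direction were less tied to T cells by name. Tdrd5, a Tudor domain gene known from the germ line, had 88.0, 56.0, 84.1 and 115 CPM in WT and 1.04, 2.69 and 10.2 CPM in the lowest, median and highest tumour. Kcnh2, a potassium channel, had 59.7 to 74.9 CPM in WT and 4.70 to 17.9 in tumours, and Gabbr1, a receptor for GABA, 111 to 186 and 2.06 to 34.8 CPM. Il4ra, the interleukin-4 receptor, had 140 to 153 CPM in WT and 11.02 to 48.3 in tumours. Als2cl, Wdr78, Dgke, BC065403 and Tctex1d1, which each overlap another gene, and Dirc2 and Cdk20 completed this group, with highest tumour levels of 11.3 to 50.3 CPM and lowest WT levels of 34.3 to 176 CPM over all 7.

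In the reverse of the switched-on genes, 58 genes were at 1 CPM or more in all WT libraries and under 1 CPM in all tumours, 30 of them receptor segments or predicted genes. Tdrp, a gene known from testis, had 46.2, 41.9, 40.3 and 53.4 CPM in WT and 0.101, 0.543 and 0.996 CPM in the lowest, median and highest tumour, the widest gap of all named genes (4.77). Pcsk1, a prohormone convertase, had 4.52 to 5.47 CPM in WT and no count in 7 of 10 tumours. Both were close to silent in all models. Car2, carbonic anhydrase 2, was outside these 58 genes, with 15.2 to 18.1 CPM in WT and 0.0452 to 1.05 in tumours.

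Part of the HoxA cluster stood lower as a block. Hotairm1, Gm28308, Hoxa3, Hoxaas3, Hoxa5 and Hoxa7, neighbours on chromosome 6 (52156902 to 52221854), were all lower, and reads of these overlapping genes cannot be separated. Hoxa7 had 4.13, 5.37, 3.38 and 3.40 CPM in WT and at most 0.159 in any tumour, and Hoxa3 had 4.67 to 5.61 and 0 to 0.817 CPM. Hox genes of this cluster act in blood progenitors and also in thymic tissue. Mycn, a MYC relative of early progenitors, had 1.01 to 2.28 CPM in WT and at most 0.239 in tumours.

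Receptors of natural killer type formed runs as well. Klre1, Klrd1, Klrk1 and Klrc2 (chromosome 6, 129577905 to 129660689) and Klra5, Klra9, Klra7, Klra13-ps and Klra3 (129898996 to 130337574) were all lower. The Klra genes and Klrc2 belong to families of near-identical genes whose reads may be split. Klrk1, the NKG2D receptor, had 5.82 to 10.9 CPM in WT and 0.231 to 2.31 in tumours. Its ligand genes Raet1e and H60b were lower too (60.2 to 105.4 CPM in WT against 2.73 to 49.4, and 47.3 to 90.2 against 0.932 to 33.3). The span of H60b lies within that of Raet1e, which also overlaps Gm26740. Reads of these genes cannot be separated, so the values are not separate results. Of 10 tested NK and cytotoxic genes, Klrb1c and Klrd1 were lower and Gzma was higher, beside 7.19% and 4.95% of all genes. The summed CPM of the 10 was 67.81 to 106.4 in WT and 85.48 to 2467 in tumours.

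Of 20 tested apoptosis genes, 3 were lower, 1 was higher and 16 were neither, beside the 7.19% and 4.95% of all genes. Of the 20, edgeR called 4 lower and 1 higher, beside 15.7% and 16.3% of all genes. Bcl2l1, which encodes BCL-XL and protects double-positive thymocytes, had 207, 222, 166 and 173 CPM in WT and 23.2 to 129 in tumours. Mcl1, another protector, had 340.3 to 353 CPM in WT and 121 to 250.5 in tumours, and the death receptor Fas 83.7 to 110.0 and 4.39 to 41.1 CPM. Bid, which promotes death, had 35.0 to 40.4 CPM in WT and 51.8 to 107 in tumours but overlapped between groups on library totals (gap -0.28).

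Among 23 tumour suppressors and cell cycle inhibitors, Cdkn1b (p27), Rb1 and Fbxw7 were lower and 20 were neither, beside 7.19% of all genes that were lower. Of the 23, edgeR called 5 lower and 2 higher, beside 15.7% and 16.3% of all genes. Cdkn1b had 136 to 199.9 CPM in WT and 24.8 to 108 in tumours, and Rb1 had 122 to 146 and 36.9 to 114 CPM. The groups lay close together for Rb1, whose span overlaps Rcbtb2. In the RAS-ERK list of 14, edgeR called 4 genes higher and 2 lower, beside 16.3% and 15.7% of all genes. The feedback genes Spred3 and Ier3 were higher and Spry2 was lower, beside 4.95% and 7.19% of all genes. Each had at most 2.02 CPM in WT, and Spred3 and Ier3 overlapped on library totals (gaps -0.37 and -0.17). Stat2 and Gbp2 were lower among 18 interferon response genes, beside 7.19% of all genes. The summed CPM of that list overlapped between groups (347 to 491.4 in WT, 243.2 to 778.9 in tumours).

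Of the lists of markers of other cell types, only the thymic epithelial one had a summed CPM that did not overlap between groups. Of 13 tested thymic epithelial markers, 5 were lower (Prss16, Psmb11, Tbata, Ctsl and Ccl25), beside 7.19% of all genes. EdgeR called 10 of the 13 lower, beside 15.7% of all genes. The summed CPM of the 13 was 628.9 to 1159 in WT and 88.02 to 233.1 in tumours, with no overlap. Ctsl alone had 537 to 1039 CPM in WT and 38.3 to 183 in tumours. Since Ctsl is a member, the rule favours this lack of overlap. Prss16, the thymus-specific serine protease, had 26.5, 24.4, 23.6 and 11.9 CPM in WT and 0, 0.143 and 0.738 CPM in the lowest, median and highest tumour. Psmb11, the proteasome subunit of cortical epithelium, had 1.31 to 2.25 CPM in WT and 0.0216 to 0.439 in tumours. The defining markers Prss16 and Psmb11 were near 0 in all tumours. What fewer epithelial cells contributed to the other lower members was not tested.

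Of the other markers, Siglech of plasmacytoid dendritic cells (4.29 to 5.23 CPM in WT, 0.0433 to 0.957 in tumours) and Cd79b of B cells (21.1 to 32.4 and 0.870 to 15.0 CPM) were lower. Siglech was the 1 member among 14 tested dendritic cell and MHC class II genes, beside 7.19% of all genes that were lower. Of the 14, 2 were called lower, beside 15.7% of all genes. The summed CPM of the 14 overlapped (327.8 to 545.2 in WT, 126.9 to 613.1 in tumours). In the B cell list of 16 no gene was a higher member, beside 4.95% of all genes. The summed CPM of that list was 564.5 to 688.7 in WT and 153.8 to 827.2 in tumours. Of 11 tested stromal and endothelial markers, Pdgfrb and Col1a2 were higher, beside 4.95% of all genes. Pdgfrb, a receptor for platelet-derived growth factor, had 0.784 to 1.74 CPM in WT and 3.47 to 122 in tumours, and the list summed to 126 to 145.2 and 115.2 to 324.9 CPM. Col1a2, a collagen chain, overlapped between groups on library totals (gap -0.15). Epor was higher and Car2 lower among 8 erythroid markers, beside 4.95% and 7.19% of all genes. The part of stromal or erythroid cells in these values was not tested.

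Rearranged receptor segments stood on 1 side only. Of 169 tested receptor and immunoglobulin segments, 45 were lower, beside 7.19% of all genes, and none was higher. Among the lower ones were 30 of 81 Trav, 10 of 22 Trbv and 3 of 14 Trbj segments. The leading Trbj segment held 12.1% to 13% of Trbj counts in WT and 39.5% to 88.8% in tumours. Tumours differed in which segment led, while a higher member must lie above WT in all 10. The rule therefore leaves little room for a higher segment, and the single direction is a description. Protein-coding genes made up 79.6% of the 2073 members. By chromosome, 8% of tested genes on chromosome 12 (46 of 575) and 2.4% on chromosome 19 (13 of 542) were higher, beside 4.95% of all. Lower were 11.4% on chromosome 19 (62 of 542) and 2.82% on chromosome 15 (17 of 603), beside 7.19% of all. These are the extremes apart from chromosome Y, and the scatter over chromosomes was not tested. Of the members, 34.4% overlap another gene that holds at least 0.1 times their counts, against 37.4% of all genes tested.

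Tumours were then compared with each other. The rule did not use the models, but it did use the tumour values and favours genes that are even over tumours, so the shares of members below are a description. Among the 3 models with replicates, which leaves out Rosa26-Lmo2+Aid-Cre, edgeR called 14.6% of all genes tested, 10.6% of members (220 genes) and 15.2% of the other genes. By direction 111 higher members (13.1%) and 109 lower members (8.88%) were called. When Sca1-Lmo2 was set against Rosa26-Lmo2+Sca1-Cre it called 9.89% of all genes and 4.39% of members (91 genes, of which 32 were higher and 59 lower in Sca1-Lmo2). The share of members was the smaller one in both comparisons with each library left out, at 1.43% to 13.3% of members against 1.59% to 19.2% of all genes for the first, but the counts moved widely. For members among models they were 31 without Sca1-Lmo2 replicate 1, 38 without Rosa26-Lmo2+Mb1-Cre replicate 2, 115, 127 and 141 without WT replicates 3, 2 and 4, and 339 without Rosa26-Lmo2+Sca1-Cre replicate 3. For members between the pair they were 21 and 60 without Sca1-Lmo2 replicates 1 and 3 and 57 without Rosa26-Lmo2+Sca1-Cre replicate 2. With Sca1-Lmo2 replicates 1 and 3 merged, an alternative chosen after seeing the data, 117 and 47 members were called. Models differ in age, so model and age cannot be told apart.

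The members with the smallest adjusted p differed in degree while staying on their side. With Sca1-Lmo2 replicates 1 and 3 merged, the edgeR adjusted p of these 6 genes was 0.0239 to 0.0264. Sh2b1, an adaptor of receptor kinases, had 90.5 to 110.0 CPM in WT, 84.7 ± 3.47 CPM in Sca1-Lmo2 (SD, n = 4), 44.9 ± 5.0 in Rosa26-Lmo2+Sca1-Cre (n = 3) and 32.2 ± 4.92 in Rosa26-Lmo2+Mb1-Cre (n = 2, edgeR adjusted p = 0.00736). Sca1-Lmo2 thus stayed close to WT. For Kalrn, with 2.80 to 4.50 CPM in WT, the means were 7.18 ± 1.69 in Sca1-Lmo2, 18.0 ± 0.503 in Rosa26-Lmo2+Sca1-Cre and 34.3 ± 4.73 CPM in Rosa26-Lmo2+Mb1-Cre, so that Sca1-Lmo2 was again nearest to WT (edgeR adjusted p = 0.00959).

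Akr1c13, an aldo-keto reductase, had 7.10 to 11.8 CPM in WT and 0.195 ± 0.0785, 1.00 ± 0.193 and 2.92 ± 0.529 CPM in Sca1-Lmo2, then Rosa26-Lmo2+Sca1-Cre, then Rosa26-Lmo2+Mb1-Cre (edgeR adjusted p = 0.00541). Here Sca1-Lmo2 was farthest from WT. Nrg2, a ligand of ErbB receptors, with 5.59 to 6.52 CPM in WT, was also lowest in Sca1-Lmo2, at 0.0966 ± 0.0768 CPM, against 2.56 ± 1.48 and 1.86 ± 0.540 CPM (edgeR adjusted p = 0.0111), and so was 2210404O09Rik (edgeR adjusted p = 0.0101). Bre, a subunit of a BRCA1 complex, had 23.6 ± 3.43 CPM in Sca1-Lmo2, 41.8 ± 3.98 in Rosa26-Lmo2+Sca1-Cre and 73.0 ± 17.2 in Rosa26-Lmo2+Mb1-Cre (edgeR adjusted p = 0.0101). The values of the leading Notch genes gave no such call, with edgeR adjusted p of 0.233 for Notch1, 0.345 for Hes1 and 0.256 for Heyl.

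Evenness over the 10 tumours is favoured by the rule itself and is given as a description. The tumours stayed within 2-fold of each other for 312 lower members (25.4%) and 111 higher members (13.1%), against 10.8% of the other genes. They spanned 16-fold or more for 33 lower (2.69%) and 78 higher members (9.23%), against 8.39% of the other genes. The median SD over tumours on the log2 scale was 0.448 for lower and 0.567 for higher members, and 0.190 and 0.208 over the WT libraries. The tumour nearest to WT was Rosa26-Lmo2+Sca1-Cre replicate 3 for 23.0% of higher members and Sca1-Lmo2 replicate 2 for 20.6% of lower members. For Sca1-Lmo2 replicate 3 these shares were 1.18% and 3.42%.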

How the data were processed

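RNA-seq was deposited for the thymus of 14 mice in 5 groups, taken from the sample titles. The authors prepared non-stranded TruSeq libraries and aligned reads with TopHat2 2.1.0 (submitters' processing notes) to mm10/GRCm38. The authors deposited 1 table of raw counts per gene, without scaling. The table gives 1 span per gene, and without strand the reads of overlapping genes cannot be told apart. Of 46948 lines, 46946 were kept after lines that repeat a gene ID were dropped.

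Counts were scaled with TMM in edgeR 4.0.16 (R 4.3.3), and the 17087 genes that reached 1 CPM in 3 or more libraries were used. The gap used a pseudocount of 0.5. The 5 groups were fitted together, and contrasts were tested by edgeR's quasi-likelihood F test (two-sided), adjusted over all genes by Benjamini-Hochberg at 0.05. The contrast with WT took the equal-weight mean of the 4 tumour groups, where the Rosa26-Lmo2+Aid-Cre library counts as a whole group, and this library was in no test among models. The SE of a log2 fold change is its size divided by the square root of F. Separate animals are assumed from the labels. Gene types came from GENCODE M21. The code was tested on simulated data.

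Members and the 26 lists were chosen with earlier results of these data known. Named were Lmo2, Notch1, Myc, Hes1 and Heyl, the 14 members of each direction with the widest gap (mean log2 level of at least 3, no receptor segments or predicted symbols), up to 4 members per list, the genes next to the line, up to 8 switched genes of each direction, and the 6 members with the smallest adjusted p among models. Some were left out for length, 1 list member is not reported here, and genes named outside the rule are said to be so or belong to a list or a run. Genes whose span overlaps another with at least 0.1 times their counts were treated as uncertain.

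Alternatives were library totals, DESeq2 1.42.0 and limma-voom (limma 3.58.1), other filters, pseudocounts of 0.1 and 2, a replicate block, leaving out each library and, added after the data were seen, merging Sca1-Lmo2 replicates 1 and 3.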

Additional observations from a re-analysis of the deposited data

Results flagged for a closer look

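In 12 of 230 groups of 4 libraries, 1 library lay far from the other 3 by Dixon's test, where chance gives about 5%. Among WT libraries, Ace was 0.0756 CPM in replicate 3 (others 0.227 to 0.258), Kcnh2 59.7 in replicate 3 (73.7 to 74.9), Ifi202b 4.22 in replicate 2 (0 to 0.0756), Prss16 11.9 in replicate 4 (23.6 to 26.5) and Klrb1c 10.2 in replicate 1 (5.23 to 5.67). Among Sca1-Lmo2 tumours, replicate 2 had 137 CPM of Ace (others 10.95 to 14.7), 135 of Exoc3l4 (7.66 to 9.80), 3.76 of Tctex1d1 (1.68 to 1.85) and 0.465 of 2210404O09Rik (0.0452 to 0.0865). Replicate 4 had 76.8 CPM of Myc (others 186 to 205), 17.9 of Kcnh2 (6.97 to 7.99) and 0.0828 of Klra9 (0.0404 to 0.0452).

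For 6 members the level differed among the 3 tumour models with replicates. The edgeR adjusted p was 0.00541 for Akr1c13, 0.00736 for Sh2b1, 0.00959 for Kalrn, 0.0101 for 2210404O09Rik, 0.0101 for Bre and 0.0111 for Nrg2. These are the smallest values among the members, and model and age cannot be told apart.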

How the results depend on the processing

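On library totals without TMM there were 441 higher members and 1620 genes called higher in tumours than WT. With nearest libraries at least 1.5-fold apart 212 higher and 296 lower members were left, and without overlapping genes 789 lower members. With the 10 tumours as 1 group 1649 genes were called lower. For Sca1-Lmo2 against Rosa26-Lmo2+Sca1-Cre, 3603 genes were called by DESeq2, 1070 by limma-voom, 3902 with no filter and 776 after merging of Sca1-Lmo2 replicates 1 and 3, an alternative chosen after seeing the data. Among models the counts were 5456, 1350, 4055 and 1019. Of members, DESeq2 called 207 between the pair and 513 among models, limma-voom 129 among models, and merging left 47 and 117.

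Same-numbered libraries of WT and Rosa26-Lmo2+Sca1-Cre deviated together (correlations of 0.226 to 0.273), but those of WT and Sca1-Lmo2 did not (-0.551 to -0.2), nor those of Sca1-Lmo2 and Rosa26-Lmo2+Sca1-Cre (-0.379 to 0.000419), so the numbers were not taken to pair the groups compared. With a replicate block edgeR called 1375 genes higher and 1563 lower in tumours than WT, 8 between the pair and 12 among models. Of members it called 0 in both tumour comparisons, with 247 between the pair and 425 among models at an unadjusted p under 0.05. The 6 members named for their adjusted p among models had 0.0767 to 0.0858 with the block.

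With 1 library left out, genes called higher than WT ranged from 1315 to 3546 and lower from 1488 to 3163. Genes called between the pair ranged from 341 to 2129 and among models from 270 to 3220, and members from 21 to 130 and from 31 to 339. The tumour comparisons therefore rest on few libraries, and the cause was not tested.

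Gaps that changed sign on library totals were Bid -0.28, Col1a2 -0.15, Fbxw7 -0.0084, Hsf2 0.058, Ier3 -0.17, Mcm6 -0.53, Qdpr -0.15, Spred3 -0.37, Tex30 -0.20 and Utp20 -0.084. With DESeq2 size factors they were Eif2ak1 0.000254, Hsf2 0.00155, Id3 -0.052, Qdpr -0.0082, Tex30 -0.0052 and Tubgcp6 -0.0013. No log2 fold change of a named gene changed sign under DESeq2, library totals or with a library left out.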
